A study of Mus musculus with 6 samples.

Results

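Immediate early genes are transcribed within minutes of a stimulus, from factors that are already present in the cell, and their mRNAs are short-lived. In neurons they follow calcium entry and synaptic activity through the kinases, CREB and serum response factor that act on their promoters, and several of their products switch the response off again. Fos is also a classical target of DREAM, a calcium-binding repressor encoded by Kcnip3 that sits on a short DNA element in target genes. The set described here holds 32 such genes, fixed by name: 6 AP-1 subunits, 4 EGR factors, 3 NR4A nuclear receptors, 4 KLF factors, 3 other transcription factors, 3 IER genes, 3 synaptic or enzymatic effectors and 6 feedback or growth regulators. All 32 were measured, by 62 of the 45037 probe sets tested, and 16 of them by more than 1 probe set. For a gene with several, the brightest on average over the 6 arrays stands for the gene, here and among the 18193 genes of the array.

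The arrays were Affymetrix Mouse Genome 430 2.0 chips hybridised with cRNA from frozen cerebellum of 3 daDREAM transgenic mice and 3 wild-type mice, each array an independent biological replicate. daDREAM is a mutant form of DREAM that represses irrespective of calcium. The labels give no age, sex, strain or promoter of the transgene, and no time or handling before dissection. Values are log2 expression per probe set as the authors deposited them, and each difference below is daDREAM minus wild type on that log2 scale. Markers of the labelled tissue were high. Gabra6, a GABA receptor subunit of cerebellar granule cells, stood at 11.94 to 12.08 in daDREAM and 12.03 to 12.07 in wild type, and the Purkinje cell gene Pcp2 at 12.43 to 12.47 in daDREAM and 12.38 to 12.43 in wild type. Of 6 measured forebrain markers 3 were below a mean level of 5, Tbr1 (2.71 to 3.00), Neurod6 (2.90 to 3.32) and Lamp5 (3.74 to 4.39), and 3 were above it, the cortical factor Emx1 (4.70 to 5.71), Rgs9 (6.75 to 7.45) and Ppp1r1b (8.79 to 9.16). Pcp2 and the forebrain markers other than Ppp1r1b were picked after their values were seen. In whole tissue, fewer cells of a type and less RNA per cell cannot be told apart.

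No detection call came with the values. Genes with a mean below 5 are called dim, since 11 of 14 measured genes of other organs (liver, pancreas, testis and the like) lay below that level. By this measure 8 of the 32 genes were dim: Fosb, Junb, Egr2, Npas4, Klf4, Sik1, Ptgs2 and Atf3. The genes of other organs above a mean of 5 were Krt10 (7.11), Prm1 (6.46) and Ins2 (6.45). A mean above 5 therefore need not mean that a gene is expressed. The arrays themselves differed in a way that partly followed genotype. The mean of 18 hybridization control probe sets, bacterial RNA added in fixed amounts, was 9.47, 10.14 and 10.47 on daDREAM arrays 1 to 3, against 8.99, 8.99 and 9.48 on wild-type arrays 1 to 3. Choroid plexus markers were also higher in daDREAM at 10 of 10 measured genes, with a summed linear level of 7458 to 8530 in daDREAM and 5062 to 6718 in wild type. Endothelial markers, of cells that also express Klf2 and Klf4, summed to 1213 to 1347 in daDREAM and 1283 to 1312 in wild type. Microglial markers had 8 of 10 genes higher, with sums of 1128 to 1367 in daDREAM and 1149 to 1177 in wild type. Meningeal fibroblast markers had 9 of 10 higher, with sums of 1680 to 1838 in daDREAM and 1424 to 1511 in wild type. The part of these shifts in the differences below was not tested.

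No immediate early gene passed the genotype comparison. Of the 32 genes 16 were higher in daDREAM, 15 lower and Fosb equal, and their differences ran from -0.33 for Homer1 and Nr4a3 to 0.28 for Klf4 and Atf3. Single arrays moved these extremes: with 1 array left out, Homer1 lay between -0.56 (without daDREAM 1) and -0.09 (without daDREAM 3), Nr4a3 between -0.66 (without daDREAM 3) and -0.08 (without daDREAM 2 or wild-type 1), Klf4 between 0.17 (without daDREAM 2) and 0.47 (without daDREAM 1), and Atf3 between 0.20 (without daDREAM 3) and 0.35 (without wild-type 3). With limma and Benjamini-Hochberg adjustment over all probe sets 0 genes were called (lowest adjusted p = 0.998), where 0% of all probe sets were called. At an unadjusted p under 0.05 there were also 0 of 32, beside 1.42% of all genes. The median difference of the 32 genes was 0.01, equal to that of all 18193 genes, and the median absolute difference was 0.10 in both. The spread among mice of 1 genotype, by brightest probe sets, was large for Fos, the NR4A receptors, Dusp1 and Dusp6. It was small for Arc, Btg2 and Klf2.

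**Figure D1:**
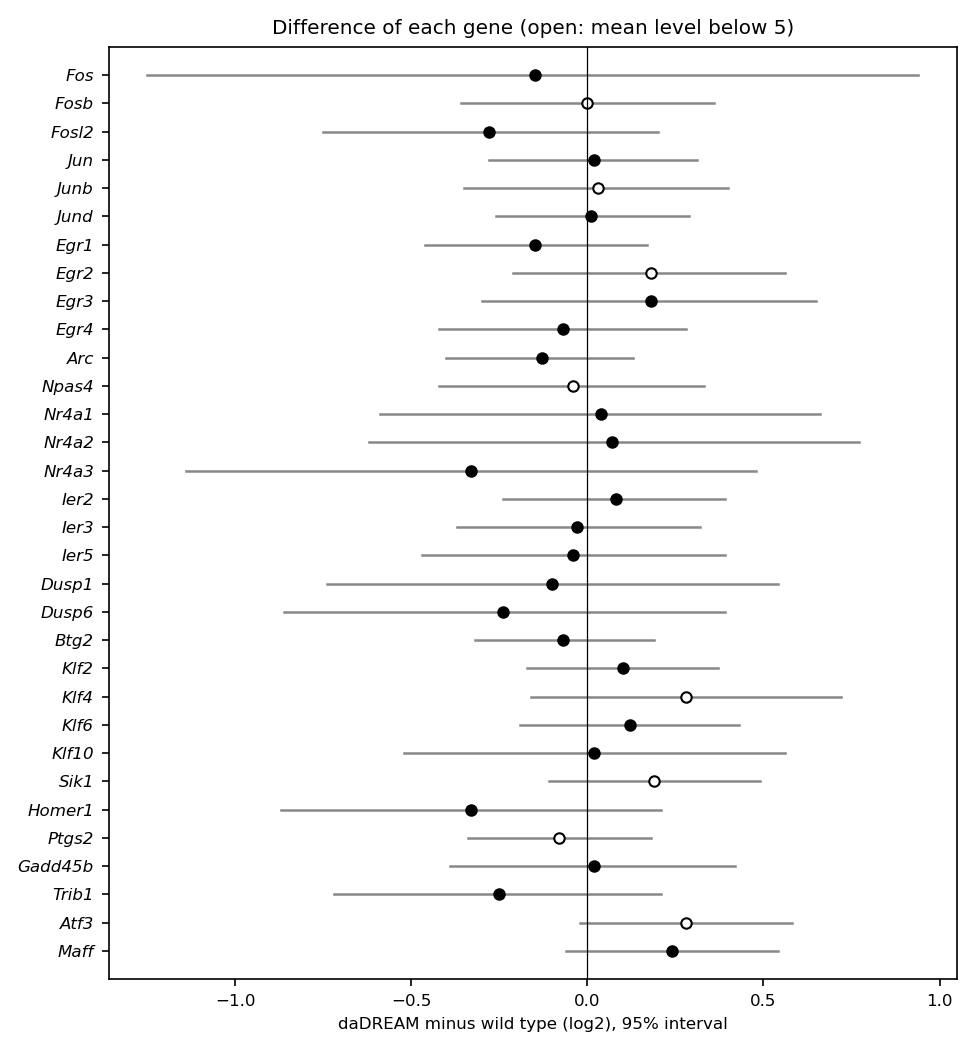
Difference of each of the 32 genes, daDREAM minus wild type, in log2 units with its 95% interval from limma (3 arrays per genotype). Every interval covers 0, and that of Fos is the widest, from -1.25 to 0.94; open symbols are genes with a mean level below 5.

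Fos, the founding AP-1 subunit, varied more between mice than nearly any other transcript. It stood at 6.63, 5.81 and 7.66 on daDREAM arrays 1 to 3, against 7.60, 6.69 and 6.27 on wild-type arrays 1 to 3. The 2 highest arrays, daDREAM 3 and wild-type 1, came from different genotypes, and the wild-type range lay within the daDREAM range. The extremes lay 3.61-fold apart within daDREAM and 2.51-fold within wild type. Means were 6.70 ± 0.93 in daDREAM and 6.85 ± 0.68 in wild type (SD, n = 3 each), a difference of -0.15 (limma adjusted p = 0.998). Its 95% interval, from -1.25 to 0.94, reached from 0.42-fold to 1.92-fold, and 3 arrays per genotype could not tell differences within it apart. The SD of Fos after removal of genotype means was 0.81, and only 11 of the 18193 genes had a larger one. Among the 2623 genes within 0.5 log2 units of its level, 1 did. Without daDREAM 3 the SD was 0.65, and without any other single array 0.70 to 0.94.

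The other AP-1 subunits varied less. Jund, a subunit with high basal expression in many tissues, stood at 10.68, 10.90 and 10.73 in daDREAM and 10.74, 10.84 and 10.69 in wild type, which left 0.01 between the means (interval -0.26 to 0.29). Jun, the main partner of Fos, stood at 7.95, 7.90 and 7.77 in daDREAM and 7.68, 7.96 and 7.93 in wild type. Its difference was 0.02 (interval -0.28 to 0.31). The genotypes overlapped for both genes. On the 2 arrays where Fos was high, the brightest probe set of Jun was at its lowest for the genotype. The other probe set of Jun had 7.82, 7.46 and 7.25 in daDREAM and 7.34, 7.81 and 7.19 in wild type. It too was lowest on daDREAM 3, but in wild type it was lowest on array 3 and not on array 1. Fosl2, a Fos-related subunit, had 5.02, 5.64 and 5.82 in daDREAM and 5.70, 5.68 and 5.93 in wild type, a difference of -0.28 (interval -0.75 to 0.20), with daDREAM 1 the lowest of the 6 arrays. Its second probe set differed by -0.02. Junb, a dim subunit, differed by 0.03 and Fosb, the gene of the stable splice form that builds up on repeated stimulation, by 0.00.

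By their brightest probe sets the NR4A receptors, orphan nuclear receptors induced by cAMP and calcium, all lay among the genes with the widest spread. Nr4a1 had 7.88, 7.93 and 8.97 in daDREAM and 8.33, 8.18 and 8.16 in wild type. Nr4a2, also a determinant of midbrain dopamine neurons, had 6.81, 7.18 and 8.16 in daDREAM and 7.32, 7.36 and 7.25 in wild type. In both genes daDREAM 3 was the highest of all 6 arrays, the other 2 daDREAM arrays were below every wild-type array, and the wild-type arrays stayed close together. The SD within genotype was 0.44 for Nr4a1 and 0.49 for Nr4a2, and without daDREAM 3 it was 0.08 and 0.16. The brightest of 3 probe sets of Nr4a3 had a different profile, with 6.08, 5.72 and 6.88 in daDREAM and 7.06, 6.69 and 5.92 in wild type, and its SD of 0.59 stayed at 0.50 without daDREAM 3. The other 2 did not share it, with SDs of 0.30 and 0.23 and differences of -0.05 and 0.02, and the mean of the 3 probe sets differed by -0.12. The differences were 0.04 (interval -0.59 to 0.66) for Nr4a1, 0.07 (interval -0.62 to 0.77) for Nr4a2 and -0.33 (interval -1.14 to 0.48) for Nr4a3. The sign for Nr4a1 depended on the array left out, with -0.32 without daDREAM 3 (unadjusted p = 0.0368, limma adjusted p = 1), 0.23 without daDREAM 1 and 0.20 without daDREAM 2.

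**Figure D2:**
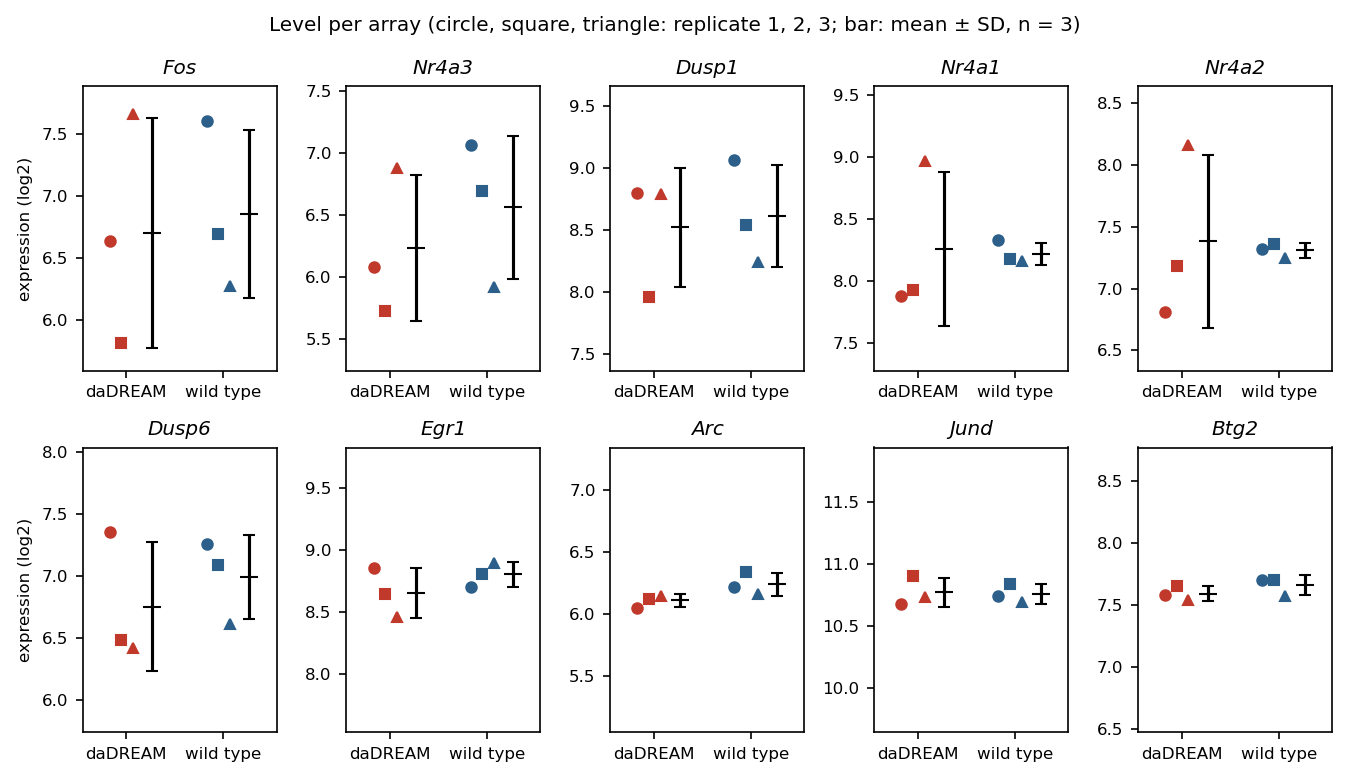
Log2 level of 10 genes on every array by their brightest probe sets, daDREAM left and wild type right. Mean ± SD (n = 3) is beside the points, and all panels span the same number of log2 units. Fos, Nr4a3 and Dusp1 scatter widely in both genotypes, Nr4a1 and Nr4a2 are raised on daDREAM 3 alone, and Egr1, Arc, Jund and Btg2 stay close together.

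The feedback regulators divided in the same way. Dusp1, the phosphatase that inactivates MAP kinases in the nucleus, had 8.80, 7.96 and 8.79 in daDREAM and 9.06, 8.54 and 8.24 in wild type, so that daDREAM 2 and wild-type 3 were the lowest of their genotypes, as they were for Fos. Dusp6, the cytoplasmic phosphatase of ERK, had 7.35, 6.48 and 6.42 in daDREAM and 7.26, 7.09 and 6.61 in wild type, and here daDREAM 3 was the lowest array. Their SDs were 0.45 and 0.44, and their differences -0.10 and -0.24. Trib1, a pseudokinase that directs substrates to degradation, had 6.14, 6.0 and 6.80 in daDREAM and 6.60, 6.58 and 6.52 in wild type. The wild-type arrays of Trib1 lay between the 2 low daDREAM arrays and the high daDREAM 3. Its difference was -0.25 with all arrays, -0.50 without daDREAM 3 (unadjusted p = 0.00437, limma adjusted p = 1), -0.10 without daDREAM 2 and -0.17 without daDREAM 1. Btg2, an antiproliferative co-factor of mRNA decay, was among the steadiest genes by its brightest probe set. That probe set stood at 7.54 to 7.65 in daDREAM and 7.57 to 7.70 in wild type. The other had 6.30, 6.36 and 6.79 in daDREAM and 6.61, 6.70 and 6.70 in wild type. Its SD within genotype was 0.19. Gadd45b, a stress sensor linked to DNA demethylation, differed by 0.02 and Sik1, a kinase that restrains CREB coactivators, by 0.19 at a dim level.

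Egr1 and Arc, both widely used as markers of neuronal activity, did not share the spread of Fos. Egr1, a zinc finger factor, had 8.85, 8.64 and 8.46 in daDREAM and 8.70, 8.80 and 8.89 in wild type, with daDREAM 3 the lowest array. Its difference was -0.15 (interval -0.46 to 0.17) and its SD within genotype 0.15. Arc, which regulates AMPA receptor traffic at synapses, had 6.05, 6.12 and 6.15 in daDREAM and 6.22, 6.34 and 6.16 in wild type. All daDREAM arrays of Arc were below all wild-type arrays, by a margin of rounding size, and the difference was -0.13 (interval -0.40 to 0.13). The genotypes did not overlap at 3 of the 32 genes, Arc, Atf3 and Maff, or 9.38%, where they did not overlap at 5.59% of all genes. The SD of Arc was 0.07, larger than that of only 4.36% of genes of like level. Its mean level, 6.17, lay below those of Krt10, Prm1 and Ins2, genes of other organs. Whether its only probe set reads above background was not tested. Egr3, a related factor needed for muscle spindles, lay between 5.90 and 6.65 in daDREAM and between 5.87 and 6.24 in wild type, a difference of 0.18. Egr4 differed by -0.07 and the dim Egr2 by 0.18.

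Npas4, a factor induced by calcium in neurons and hardly by other stimuli, was dim on every array. It had 3.51, 3.61 and 4.02 in daDREAM and 3.91, 3.75 and 3.61 in wild type, and its highest 2 arrays were the same 2 as for Fos. The difference was -0.04 with an interval from -0.42 to 0.33. Atf3, a stress-induced factor, had 4.21, 4.22 and 4.44 in daDREAM and 3.91, 3.96 and 4.17 in wild type, without overlap, a difference of 0.28 (interval -0.02 to 0.58). It had the lowest unadjusted p of the 32 genes, 0.0664 (limma adjusted p = 0.998). Over the 6 arrays Atf3 ran with the hybridization control level (Pearson r = 0.93, exact permutation p = 0.00417, which became 0.0667 after adjustment over 32 genes). Its rank correlation, Spearman rho, was 0.94 (exact permutation p = 0.0167, or 0.107 adjusted). Maff, a small Maf protein named after its values were seen, stood at 5.31 to 5.54 in daDREAM and 5.01 to 5.28 in wild type, a difference of 0.24 (interval -0.06 to 0.54).

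Homer1, a scaffold of metabotropic glutamate receptors whose short form is activity-induced, had 8.77, 8.31 and 7.82 in daDREAM and 8.80, 8.71 and 8.38 in wild type. Its difference was -0.33 (interval -0.87 to 0.21), and daDREAM 1 lay within the wild-type range. Ptgs2, the inducible cyclooxygenase, was dim at 3.39 to 3.46 in daDREAM and 3.40 to 3.57 in wild type. The IER genes, serum-inducible genes of varied function, stayed near 0, with 0.08 for Ier2, -0.03 for Ier3 and -0.04 for Ier5. By their brightest probe sets the KLF zinc finger factors were above 0, none past the test: Klf2, a flow-responsive factor of endothelium, at 0.10, Klf6 at 0.12, Klf10, induced by TGF-beta, at 0.02 and Klf4 at 0.28. That direction was not shared by all probe sets, since Klf4 and Klf6 each stood at -0.03 with the mean of their probe sets, and 3 of 5 probe sets of Klf6 and 1 of 2 of Klf4 were lower in daDREAM. Klf4, dim here, had 4.51, 5.10 and 5.05 in daDREAM and 4.47, 4.50 and 4.86 in wild type, with overlap.

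The spread within genotype was set beside that of genes at a similar level. The median SD of the 32 genes was 0.22, against 0.19 for all genes. An SD of at least 0.4 was found at 6 of 32 genes, 18.8%, beside 5.3% of all genes, and these were Fos, Nr4a3, Nr4a2, Dusp1, Nr4a1 and Dusp6. At a level of 5 or more the shares were 6 of 24, or 25%, and 6.84%. Of the 32, 7 stood at percentile 94 or more among genes of like level, the 6 above and Homer1. That cut is the percentile of Homer1 and was picked after the values were seen. The next gene, Klf10, stood at percentile 86. Above the middle were 17 of the 32, close to the even split that the middle makes among genes of like level. At the other end, Arc, Btg2, Ptgs2 and Klf2 had SDs of 0.07 to 0.09. Leaving out daDREAM 3 lowered the median SD of the 32 genes to 0.15. The median of all genes without daDREAM 3 was not computed. That array was the highest of its genotype at 18 of 32 genes, 56.2%, beside 36.3% of all genes.

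**Figure D3:**
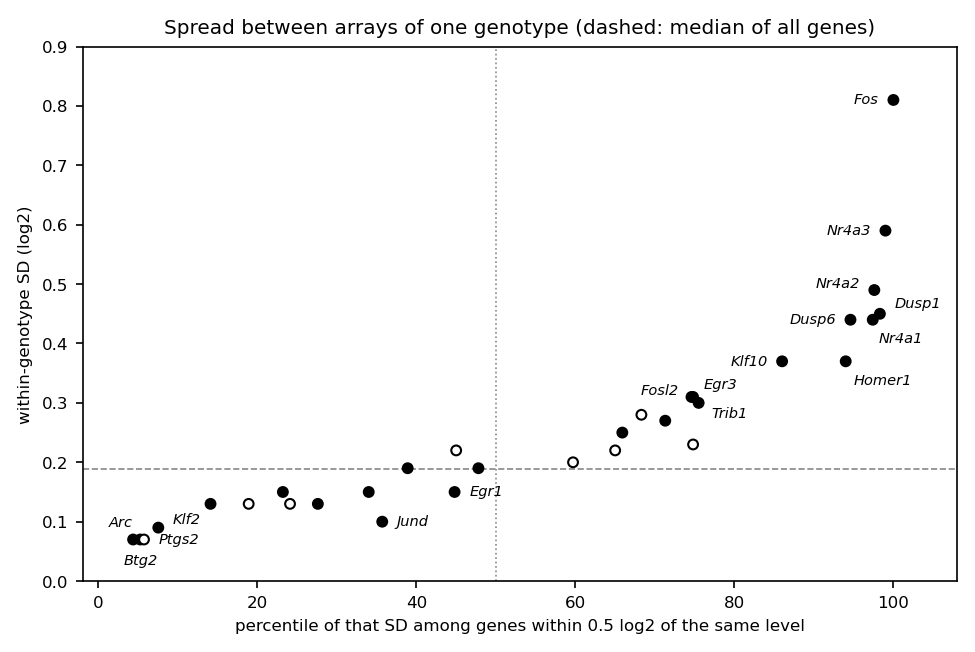
Within-genotype SD of each of the 32 genes in log2 units (y axis) against its percentile among all genes within 0.5 log2 units of the same level (x axis); the dashed line is the median of all genes, 0.19, and open symbols are dim genes. Fos stands at the top with 0.81, the NR4A receptors, Dusp1, Dusp6 and Homer1 fill the upper right, and Arc and Btg2 lie at the lower left.

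Correlation with Fos from mouse to mouse was computed for each of the other genes, and none passed after adjustment. Over the 6 arrays 4 of the other 31 genes had a Pearson r with Fos of at least 0.8, or 12.9%, where 0.962% of all genes did. They were Nr4a3 with r = 0.93 (exact permutation p = 0.00417, adjusted p = 0.129), Junb with r = 0.89 (exact permutation p = 0.0111, adjusted p = 0.172), Dusp1 with r = 0.89 (exact permutation p = 0.0222, adjusted p = 0.23) and Npas4 with r = 0.85 (exact permutation p = 0.0417, adjusted p = 0.258). The rank correlation (Spearman rho) was 0.94 (exact permutation p = 0.0167), 0.83 (exact permutation p = 0.0583), 0.71 (exact permutation p = 0.136) and 0.81 (exact permutation p = 0.0722) in the same order, with adjusted p of 0.258 to 0.527. For Nr4a3 this held for the brightest probe set alone, since the other 2 had r of 0.13 and 0.34. In the other direction, dimmer probe sets of genes outside these 4 reached 0.8. The second of Ptgs2, a dim gene, had r = 0.90 (brightest -0.47), and 1 of Nr4a2 had r = 0.84 (brightest 0.61). Both were picked after their values were seen. With 6 arrays there is no exact p below 0.00278. After removal of genotype means 5 of 31 genes, 16.1%, had r of at least 0.8, beside 2.11% of all genes, and r was 0.95 for Nr4a3, 0.91 for Junb, 0.89 for Dusp1 and 0.85 for Npas4. The fifth was Trib1 with 0.82. Without daDREAM 3 and wild-type 1, the 2 arrays farthest from the median of Fos, r was 0.82 for Nr4a3 and 0.93 for Dusp1, but 0.58 for Junb and 0.16 for Npas4, whose relation to Fos rested on those arrays. Both of these are dim, and among genes at a level of 5 or more the count was 2 of 23, or 8.7%, beside 0.852%. Trib1 and Nr4a1 came next, at 0.78 and 0.77, and stood at 0.56 and 0.28 without those arrays. Jun had r = -0.78 with all arrays and 1.00 without them, and Egr1 had -0.48 and 0.70, so that their sign rested on the same 2 arrays. The second probe set of Jun had r = -0.23 with Fos over all arrays. Arc had 0.22. Over the 6 arrays Fos had r = -0.05 with the hybridization control level (exact permutation p = 0.91). Without daDREAM 2 and daDREAM 3, the 2 arrays farthest from the median of that level, r was -0.72. There it was -0.95 for Nr4a3, -0.56 for Junb, -0.47 for Dusp1 and -0.90 for Npas4. With all arrays these 4 had -0.25, 0.35, -0.33 and 0.19. The part of the control level in the relation to Fos was not tested.

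**Figure D4:**
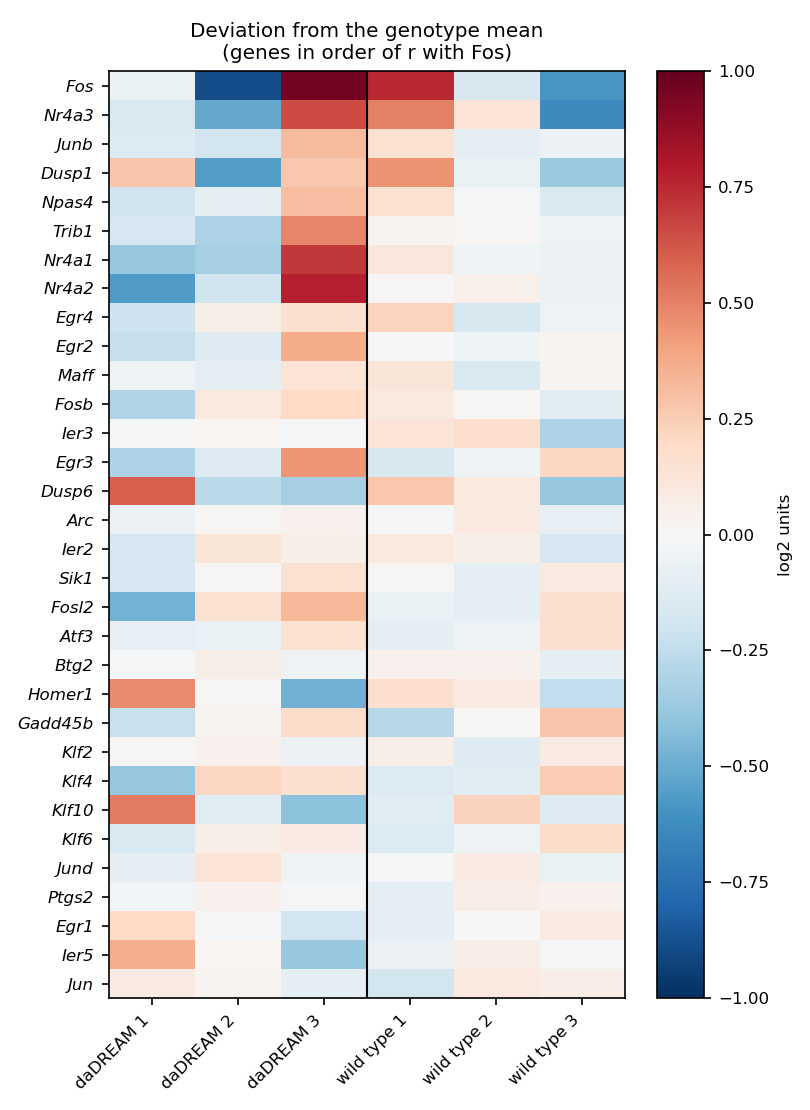
Deviation of each gene from the mean of its genotype on every array, in log2 units (red above, blue below), with Fos on top and the other 31 genes in order of their correlation with it. Fos and Nr4a3 are red on daDREAM 3 and wild-type 1 and blue on daDREAM 2 and wild-type 3. The next rows, down to Nr4a2, are red on daDREAM 3 but vary on the other arrays, several of them near white there. The rows of Homer1, Klf10 and Ier5 are red on daDREAM 1 and blue on daDREAM 3.

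Promoter sequences are shown for Fos and the 4 genes with r of at least 0.8. By brightest probe sets these were the highest positive correlations among the other 31 genes, and none passed after adjustment. The sequences are the 250 bases before the annotated start, from RefSeq on build GRCm38.p6, printed on the strand of the gene. Capitals mark TGACG on either strand (CGTCA on the printed strand), the core of the site bound by CREB and related factors.
Fos: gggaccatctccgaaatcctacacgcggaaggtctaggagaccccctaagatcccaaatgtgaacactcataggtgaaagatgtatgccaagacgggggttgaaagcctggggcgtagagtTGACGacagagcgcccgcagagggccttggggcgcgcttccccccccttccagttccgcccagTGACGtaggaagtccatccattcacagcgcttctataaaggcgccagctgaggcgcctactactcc
Nr4a3: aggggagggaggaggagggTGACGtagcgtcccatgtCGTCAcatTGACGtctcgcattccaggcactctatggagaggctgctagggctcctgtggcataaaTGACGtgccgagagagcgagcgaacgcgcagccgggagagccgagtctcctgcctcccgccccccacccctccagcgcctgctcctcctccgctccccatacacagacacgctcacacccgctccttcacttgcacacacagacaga
Junb: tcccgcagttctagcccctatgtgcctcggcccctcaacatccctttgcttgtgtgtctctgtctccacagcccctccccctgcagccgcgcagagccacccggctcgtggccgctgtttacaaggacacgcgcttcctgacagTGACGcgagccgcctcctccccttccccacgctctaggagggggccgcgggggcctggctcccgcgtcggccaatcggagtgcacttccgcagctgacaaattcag
Dusp1: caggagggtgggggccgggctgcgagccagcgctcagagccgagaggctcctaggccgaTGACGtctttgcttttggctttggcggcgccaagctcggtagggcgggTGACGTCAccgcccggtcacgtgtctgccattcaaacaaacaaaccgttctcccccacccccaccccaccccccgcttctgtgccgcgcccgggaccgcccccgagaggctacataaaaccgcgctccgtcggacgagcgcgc
Npas4: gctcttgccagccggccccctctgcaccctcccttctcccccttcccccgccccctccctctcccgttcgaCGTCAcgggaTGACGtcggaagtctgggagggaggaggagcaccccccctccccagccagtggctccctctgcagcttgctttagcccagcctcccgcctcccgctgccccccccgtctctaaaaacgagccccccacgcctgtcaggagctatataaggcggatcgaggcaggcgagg
They lie at chr12:85473640-85473889 on the plus strand for Fos, chr4:48045055-48045304 on the plus strand for Nr4a3, chr8:84978749-84978998 on the minus strand for Junb, chr17:26508473-26508722 on the minus strand for Dusp1 and chr19:4989972-4990221 on the minus strand for Npas4.

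Each of these 5 promoters held TGACG. In Fos it began at positions -129 and -66 from the start, the nearer one followed by a TATAAA at -33. Nr4a3 held 4 matches, between positions -231 and -143, and Dusp1 held the full palindrome TGACGTCA from position -143. Promoters were found for 25 of the 32 genes, and 16 of the 25, or 64%, held TGACG, beside 19.8% of the 27025 genes in the table. Of the other 20 genes with a promoter 11 held it, Btg2, Klf2 and Nr4a1 among them. The full TGACGTCA was in 3 of 25 promoters, those of Btg2, Dusp1 and Maff, or 12%, beside 1.77%. The serum response element (CArG box) was in 1 of 25, that of Egr2, or 4%, beside 1.62%. Only the 250 bases before the start were searched, so an element outside them was not seen and its absence cannot be read from this count. The 7 genes without a promoter here, Arc, Egr1, Egr3, Ier2, Klf10, Sik1 and Trib1, were not searched. GTCA, the core of the DREAM site and part of every TGACG read on the other strand, was in 21 of 25, or 84%, beside 82.5% of all genes. All motifs were searched on both strands, windows of 1 gene were pooled, and a match is a match of letters only.

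Probe sets of 1 gene did not always follow each other over the arrays. Of the 16 genes with more than 1 probe set, 6 had differences of both signs. The probe sets shown beside the brightest were picked after their values were seen. For Klf4 the brightest probe set differed by 0.28, and the other by -0.34, with 5.19, 4.53 and 3.55 in daDREAM and 4.74, 4.60 and 4.94 in wild type. For Klf6 the brightest ran from 5.79 to 6.02 in daDREAM and from 5.68 to 6.0 in wild type, with daDREAM 1 low. Its second brightest had 5.69, 4.73 and 4.56 in daDREAM and 5.23, 5.47 and 4.60 in wild type, with daDREAM 1 high. The hybridization control level moved with both patterns. Over the 6 arrays the brightest Klf6 probe set ran with that level (Pearson r = 0.84, exact permutation p = 0.0333, or 0.178 adjusted, with a rank correlation, Spearman rho, of 0.99 at an exact p of 0.00556, or 0.107 adjusted), and 3 of the other 4 ran against it. The brightest Homer1 probe set ran against it (Pearson r = -0.90, exact permutation p = 0.00694, or 0.0741 adjusted, with a rank correlation, Spearman rho, of -0.94 at an exact p of 0.0167, or 0.107 adjusted), while the fourth brightest was highest on daDREAM 3, with 5.05, 5.16 and 5.48 in daDREAM and 5.01, 5.05 and 5.02 in wild type. Without the 2 arrays farthest from the median of the control level, r was 0.74 for Klf6, -0.55 for Homer1 and 0.98 for Atf3. Such an r was at least 0.8 at 4 of 32 genes (Sik1, Atf3, Klf4 and Klf6), 12.5%, beside 9.07% of all genes, and -0.8 or less at 2 (Homer1 and Dusp6), 6.25%, beside 10.5%. No gene of the 32 passed in this family after adjustment.

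Nr4a2 and Gadd45b showed the same with other arrays. Of the 6 probe sets of Nr4a2, 5 had daDREAM 3 as the highest daDREAM array, and the fifth brightest did not, with 5.75, 4.71 and 5.49 in daDREAM and 6.06, 5.46 and 4.68 in wild type. Their differences ran from -0.08 to 0.18. Gadd45b, named here after its values were seen, had 1 probe set at an unadjusted p under 0.05, the only one of the 62 (1.81% of all probe sets). This was the second brightest of its 3, with 6.63, 6.91 and 6.78 in daDREAM and 6.19, 6.16 and 6.61 in wild type, a difference of 0.45 (unadjusted p = 0.0201, limma adjusted p = 0.998). The brightest probe set differed by 0.02 and the dimmest by 0.08. Over the 6 arrays r with the hybridization control level was 0.89 for the second brightest, 0.55 for the brightest and 0.76 for the dimmest. The part of that level in the difference of 0.45 was not tested. In all, 5 of the 62 probe sets had no overlap between genotypes, or 8.06%, beside 6.01% of all probe sets.

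**Figure D5:**
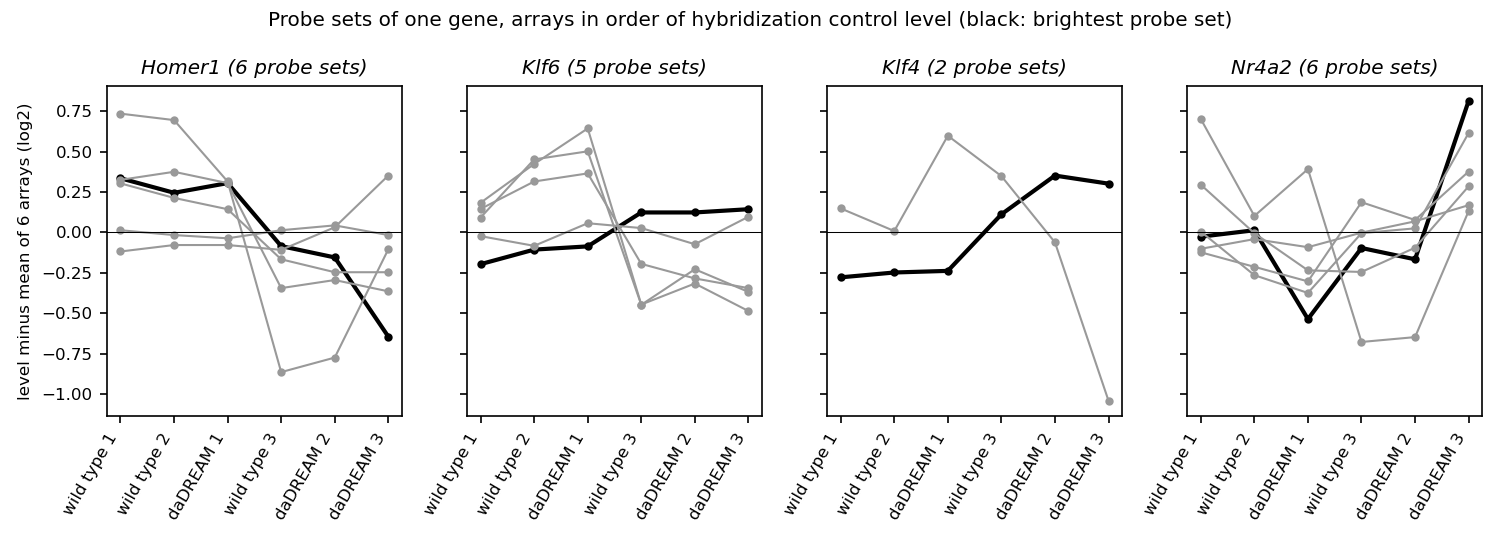
Every probe set of Homer1, Klf6, Klf4 and Nr4a2, as its log2 level minus its mean over the 6 arrays, with arrays in rising order of hybridization control level from left to right and the brightest probe set in black. In Klf6 and Klf4 the black line rises where other probe sets of the gene fall, and in Nr4a2 all 6 lines end above 0 on daDREAM 3.

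Other early-response genes were read in the same way. Of a further 40 such genes 36 were measured, 16 higher and 20 lower in daDREAM, with a median difference of -0.01, and 0 passed limma after adjustment or at an unadjusted p under 0.05. Rgs4, a brake on G protein signalling, had the largest difference, -0.49 (interval -0.99 to 0.01), with 6.63, 6.18 and 6.03 in daDREAM and 6.94, 7.01 and 6.37 in wild type. The clock gene Per1 and the protocadherin Pcdh8 each differed by 0.29. Of 18 measured upstream regulators 6 were higher and 12 lower, with a median of -0.05, and Creb1 led at -0.29 (interval -0.78 to 0.19). Of these 54 genes the strongest relation with Fos was negative, that of Camk2g, a subunit of the calcium/calmodulin kinase, with r = -0.92 (exact permutation p = 0.0278, adjusted p = 0.694), a rho of -0.83 (exact permutation p = 0.0583) and r = -0.57 without daDREAM 3 and wild-type 1. It was picked after its value was seen. A positive r of at least 0.8 was found at 3: Crem, a gene of cAMP-responsive repressors, with 0.85 (exact permutation p = 0.0222, adjusted p = 0.694), Nrn1, a secreted neurite factor, with 0.84 (exact permutation p = 0.0389, adjusted p = 0.694) and the ternary complex factor Elk3 with 0.82 (exact permutation p = 0.0514, adjusted p = 0.694). Beside these 3 of 54, 0.962% of all genes had an r with Fos of at least 0.8. Crem (mean level 4.93) and Elk3 (4.69) were dim. For these 3 genes Spearman rho was 0.77, 0.83 and 0.89 (exact permutation p = 0.103, 0.0583 and 0.0333, adjusted p = 1 for each), and without daDREAM 3 and wild-type 1 r was 0.90, 0.74 and 0.64.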

How the data were processed

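Each probe set has 1 log2 value per array, as the authors deposited it, and the submitters' processing notes name RMA and the affy package without versions. RMA equalises probe distributions across arrays, which hides a change shared by most genes, and it compresses differences of dim probe sets. Values are rounded to 2 decimals and run from 2.46 to 13.4 outside the controls, and array medians lay between 5.12 and 5.23. The deposited distributions still differed in width. Interquartile ranges were 3.49, 3.15 and 2.97 on daDREAM arrays 1 to 3, and 3.27, 3.38 and 3.10 on wild-type arrays 1 to 3. Among genes at a level of 5 or more, the median deviation from the genotype mean was 0.09 on daDREAM 1 and -0.08 on daDREAM 3. The part of this in contrasts between those arrays was not tested. Of 45101 probe sets 64 controls were left out. Of the 45037 tested, 34945 carry a single symbol in GEO's annotation of the array. Another 932 carry several and were not named, and 9160 carry no symbol.

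The genotype test was limma's 2-sided moderated test (version 3.58.1 under R 4.3.3), and its p-values were adjusted by Benjamini-Hochberg across the 45037 probe sets, with a threshold of 0.05. The number of arrays limits precision: the median 95% interval of the 32 genes reached 0.377 log2 units to either side, a factor of 1.3. Spread is the SD after removal of genotype means (4 degrees of freedom). Correlations used 2-sided exact permutation over 720 orders, with Benjamini-Hochberg adjustment within families of 31, 32 and 54 relations. The fit was tested on simulated data.

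The genes and lists were chosen with earlier results of these data known, so no list was tested as a set. Every gene of the set is named. Values on every array are given for Fos, Egr1, Arc, Npas4 and Klf4 and for the 6 genes with the largest spread, difference or level, and other lists give at most 3 genes by difference and 3 by correlation. Alternatives were a replicate block, another variance prior, a limit on level, renewed quantile normalization, median centring, the mean of a gene's probe sets, the hybridization control level as covariate, and each array left out.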

Additional observations from a re-analysis of the deposited data

How the results depend on the processing

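None of the 32 genes and no probe set passed limma after adjustment in any of the settings run. Counts at an unadjusted p under 0.05 were less steady. Over all probe sets the count was 817, with 478 at a mean level of at least 5 (fewer were tested), 1361 after renewed quantile normalization, 10471 when the hybridization control level entered as a covariate, and 324 (without wild-type 1) to 7254 (without daDREAM 1) when an array was left out. Among the 32 genes it was 0, with 1 (Atf3) after renewed quantile normalization, 1 (Atf3) with the mean of a gene's probe sets, 5 with the covariate (Fosl2, Dusp6, Klf10, Homer1 and Gadd45b), and 0 to 4 with an array left out, 4 being without daDREAM 1 (Dusp6, Klf4, Homer1 and Atf3).

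The labels do not say whether the replicate numbers pair the arrays. Deviations of same-numbered arrays correlated at 0.12, -0.28 and 0.32. Arrays numbered 3 matched each other best, and not every array matched its own number best. These few values cannot decide whether the arrays were paired. With the replicate block 1093 probe sets and 0 of the 32 genes were at an unadjusted p under 0.05, and 0 passed after adjustment.

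The hybridization control level partly follows genotype, so the covariate and genotype overlap. With it the median difference of the 32 genes was -0.14, and 16 genes changed sign. Those that moved by more than their spread and changed sign stood at 0.05 for Egr1, -0.20 for Egr2, -0.41 for Egr3, -0.55 for Nr4a1, -0.71 for Nr4a2, 0.44 for Ier5, 0.65 for Dusp6, -0.27 for Klf4, -0.16 for Klf6, -0.08 for Sik1, 0.43 for Homer1 and -0.43 for Gadd45b. Another 7 moved by more than their spread and stood at -0.92 for Fosl2 (unadjusted p = 0.000266, limma adjusted p = 0.0829), 0.72 for Klf10, -0.58 for Trib1, 0.05 for Atf3, -0.28 for Fosb, -0.29 for Egr4 and 0.00 for Btg2. With the mean of a gene's probe sets Klf4 stood at -0.03 and Klf6 at -0.03. Median centring changed the sign of 4 genes, with differences of 0.02 or less, and renewed quantile normalization that of 1. The median spread of the 32 genes was 0.15 (without daDREAM 3) to 0.25 with an array left out. The number of genes with r of at least 0.8 with Fos was 4, and 2 at a level of at least 5, where Junb and Npas4 are not tested. It was 5 with the mean of a gene's probe sets. With an array left out it was 4 (without daDREAM 3) to 6 (without daDREAM 1). The median difference of the upstream regulators was -0.16 (without daDREAM 1) to 0.06 (without daDREAM 3). The causes were not tested.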
